A study of Mus musculus with 72 samples.

Results

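Srebf1, Fasn, Acaca, Acly, Scd1, Elovl6, Me1, Thrsp, Pnpla3 and Elovl5 were followed through the day as the lipogenic genes of SREBP1, in mouse livers labelled as sirtuin knockouts or as wild type (WT). The 10 genes were chosen by name, among 22180 genes with a probe set that carries 1 gene symbol, and each was read by the 1 probe set annotated with its symbol alone. A probe set was the unit measured by the array, and its level is given here as log2(intensity + 16), a scale that understates changes of weak signals. All 10 genes passed the filter on low values, under which 13308 genes were tested.

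SREBP1 is a transcription factor that is made as a membrane protein of the endoplasmic reticulum, travels to the Golgi with its escort Scap when the Insig proteins release it, and is cut there so that its active part can enter the nucleus. In the liver it is known for switching on fatty acid synthesis after feeding and under insulin, and it also acts on its own gene, Srebf1. Its targets form a line of enzymes. Acly makes acetyl-CoA from citrate, Acaca carboxylates it to malonyl-CoA, Fasn builds palmitate, Me1 supplies NADPH, Elovl6 and Elovl5 lengthen fatty acids, and Scd1 introduces the double bond of oleate. Thrsp, also called Spot 14, is a nuclear regulator of lipogenesis, and Pnpla3 encodes a lipid droplet protein with lipase activity. SIRT6 and SIRT1 are NAD-dependent deacylases, and the study is known for tying SIRT6 to the daily cycle of SREBP1 targets.

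The livers came from 2 cohorts that differed in strain. The first, of the strain label 129 mixed, held WT mice and mice labelled as knockouts (KO) of SIRT6 in the liver, and the second, C57BL/6, held WT mice and mice labelled as liver knockouts of SIRT1. All were kept under 12 h of light and 12 h of dark and were sampled every 4 h at zeitgeber time (ZT, hours after lights on) 0, 4, 8, 12, 16 and 20, with 3 samples at each time. This gave 4 sets of 18 arrays, called SIRT6 WT, SIRT6 KO, SIRT1 WT and SIRT1 KO below, and 72 arrays in all. The sources used here do not give the age and sex of the mice, their feeding or the driver of the liver deletion. Replicates are numbered in the labels without a statement that they were separate mice, so a p-value here reflects the spread of these samples alone, which may be technical.

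The knocked-out genes were read first as a check of the labels. Sirt6 stood at 7.89 ± 0.10 (SD, n = 18) in the arrays labelled SIRT6 KO and at 7.32 ± 0.18 (n = 18) in their WT, which is higher, not lower (difference 0.57, limma adjusted p = 8.9e-09). Sirt1 stood at 8.74 in both sets of its cohort (adjusted p = 0.96). The sources used here do not say whether these probe sets lie in the deleted parts. If they lie outside, they check nothing, and every direction below rests on the labels. The array medians of intensity ran from 43.9 to 53.8, and 0 pairs of arrays were identical. In the SIRT6 cohort 5 arrays had a mean correlation below 0.95 with the other 2 of their group, the lowest being SIRT6 WT replicate 1 at ZT12 (r = 0.912), and in the SIRT1 cohort no array did. The defining hepatocyte marker Alb had a mean intensity of 10895. Fat cells also carry this program, and 6 of 7 adipocyte markers were measured, with Lep at a mean intensity of 18.1 and Adipoq at 76.5. Their summed intensity ran from 363 to 806 in SIRT6 WT, 375 to 478 in SIRT6 KO, 444 to 625 in SIRT1 WT and 463 to 1013 in SIRT1 KO. The Kupffer cell markers, 7 of 7 measured, summed to between 1548 and 9407 in SIRT6 WT and between 1908 and 11737 in SIRT6 KO, against 1560 to 4346 in SIRT1 WT and 1010 to 3667 in SIRT1 KO, and their part in the results below was not tested. In these bulk samples fewer cells of a type and less RNA per cell cannot be told apart.

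The sequences just before the transcription start are shown for some members, picked as examples. They are Thrsp with the widest swing, Fasn and Elovl6 with peaks in the dark phase, and Elovl5 with a peak near the start of the light phase. Each is the 250 bases before the start in RefSeq (build GRCm38.p6), written 5′ to 3′ on the gene's strand. Thrsp lies at chr7:97417551-97417800 on the minus strand, Fasn at chr11:120824548-120824797 on the minus strand, Elovl6 at chr3:129532136-129532385 on the plus strand and Elovl5 at chr9:77917115-77917364 on the plus strand. Capitals mark matches on either strand to the CCAAT box, where the SREBP partner NF-Y binds, to the E-box CACGTG of clock and SREBP factors, and to TCACNCCAC, a form of the sterol regulatory element.
Thrsp: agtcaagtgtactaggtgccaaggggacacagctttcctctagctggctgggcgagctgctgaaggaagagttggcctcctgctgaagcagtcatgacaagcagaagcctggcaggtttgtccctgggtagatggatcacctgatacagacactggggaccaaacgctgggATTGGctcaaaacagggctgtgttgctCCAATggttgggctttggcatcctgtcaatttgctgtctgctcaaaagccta
Fasn: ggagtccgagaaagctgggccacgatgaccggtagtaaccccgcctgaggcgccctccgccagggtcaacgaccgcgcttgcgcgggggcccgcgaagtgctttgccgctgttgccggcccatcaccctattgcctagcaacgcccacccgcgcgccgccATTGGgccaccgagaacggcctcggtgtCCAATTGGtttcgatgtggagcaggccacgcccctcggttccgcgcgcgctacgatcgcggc
Elovl6: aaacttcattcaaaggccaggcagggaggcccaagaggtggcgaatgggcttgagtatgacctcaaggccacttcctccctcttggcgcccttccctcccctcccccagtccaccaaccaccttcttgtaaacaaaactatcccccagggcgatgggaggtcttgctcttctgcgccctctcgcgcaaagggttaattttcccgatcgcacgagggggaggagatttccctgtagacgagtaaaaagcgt
Elovl5: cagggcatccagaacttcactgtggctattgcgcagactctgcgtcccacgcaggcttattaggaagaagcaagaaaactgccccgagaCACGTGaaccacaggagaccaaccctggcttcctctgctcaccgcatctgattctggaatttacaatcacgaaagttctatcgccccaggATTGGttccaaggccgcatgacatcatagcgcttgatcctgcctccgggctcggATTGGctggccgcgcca
Over the 9 members with a listed start (12 starts in all, 3 of them of Srebf1) the form TCACNCCAC was found in 0 of 12 windows, and in 1.05% of all 32851 windows of this length. CACGTG was found in 1 of the 12, that of Elovl5, 161 to 156 bases before its start, and in 6.02% of all windows. CCAAT or its complement ATTGG was found in 7 of the 12 windows, of 6 genes, against 33.9% of all. The Thrsp window holds it on both strands, 79 to 75 and 52 to 48 bases before the start. In Fasn there are 3 matches, of which CCAAT at 62 to 58 and ATTGG at 59 to 55 overlap. The Elovl6 window holds none of the 3 motifs. Neither does that of Acly, which also peaked in the dark phase and is not shown. The GC box GGGCGG, which is not marked in capitals and can bind Sp1, was found in 5 of the 12 windows and in 32.7% of all. A match is a description of the letters and not of binding.

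The daily rhythm was tested in each set of 18 arrays by fitting a cosine of 24 h, with the amplitude given as fitted peak minus trough. At an adjusted p under 0.05, 4 of the 10 genes were rhythmic in SIRT6 WT (10.1% of all genes tested), 6 in SIRT6 KO (10.6%), 5 in SIRT1 WT (18.3%) and 4 in SIRT1 KO (23.2%). Both KO counts include Pnpla3, which passed the filter through the SIRT6 cohort and was called in neither set with no filter. The count in SIRT6 KO also includes Srebf1, whose call there an F test over the 6 times ended. Further calls that an alternative at this threshold ended are given with each gene below or, for a replicate block, at the end. The median amplitude of the 10 was 0.70 in SIRT6 WT against 0.23 over all genes, 0.97 against 0.20 in SIRT6 KO, 0.45 against 0.21 in SIRT1 WT and 0.49 against 0.22 in SIRT1 KO. Thrsp was the member called in all 4 sets. In SIRT1 WT the count fell from 5 to 3, through Fasn and Acly, when any of 8 arrays was left out: replicate 3 at ZT0, 1 at ZT4, 2 or 3 at ZT8, 1 or 3 at ZT12, and 1 or 3 at ZT20.

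**Figure D1:**
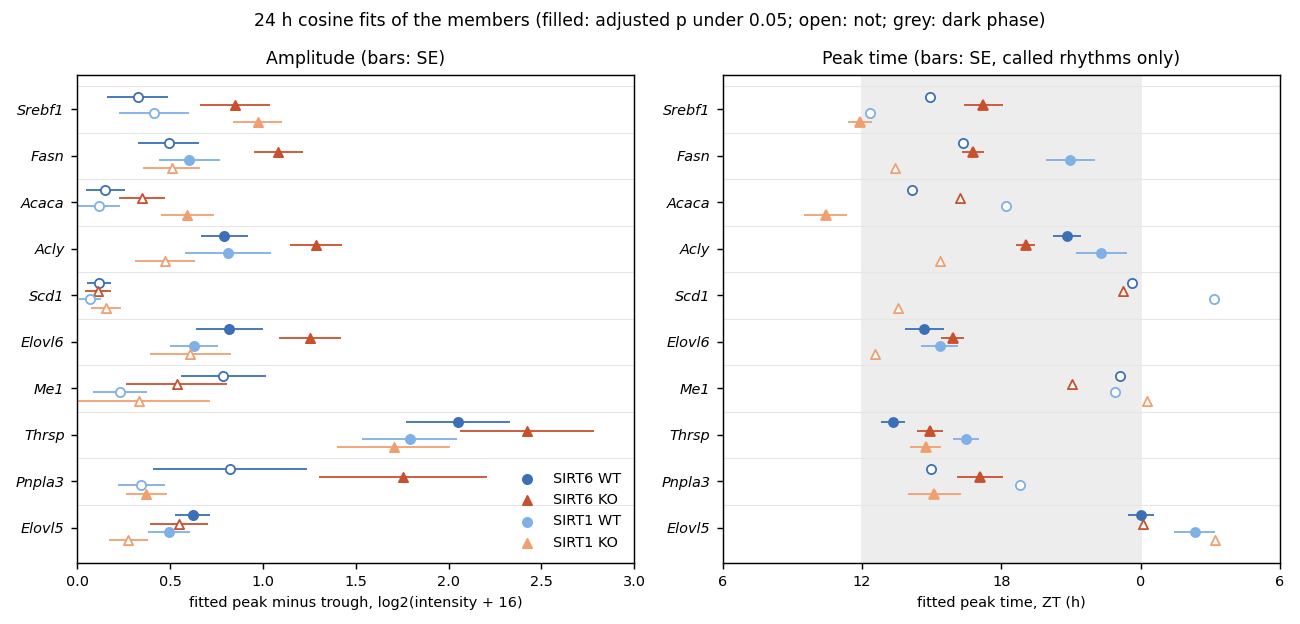
Fitted amplitude (log2 units, peak minus trough) and fitted peak time (ZT, hours) of the 10 genes in the 4 sets of 18 arrays, with bars of 1 standard error (for peak times only where the rhythm was called), filled points where it had an adjusted p under 0.05, and grey for the dark phase. Thrsp has the largest amplitude in every set, from 1.70 to 2.42, and Elovl5 peaks near the start of the light phase.

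Thrsp carried the widest rhythm. In SIRT6 WT its 3 arrays read 9.0, 10.12 and 9.02 at ZT4 and 10.81, 11.64 and 11.77 at ZT12. In SIRT6 KO they read 8.33, 8.67 and 8.56 at ZT4 and 10.86, 11.28 and 11.35 at ZT16. In SIRT1 WT they read 9.59, 9.91 and 8.72 at ZT4 and 11.18, 11.33 and 10.85 at ZT12. The low and the high time did not overlap in any of these 3 sets. Here and for the genes below, these were the times of the lowest and highest group mean on the same arrays. A lack of overlap between them follows in part from that choice and is no separate test of the rhythm. In SIRT1 KO the arrays read 9.92, 10.24 and 8.27 at ZT4 and 11.74, 10.73 and 11.45 at ZT16, again without overlap, although replicate 3 at ZT4 lay well below the other two. The fitted amplitude was 2.05 ± 0.28 (SE) in SIRT6 WT, a 4.14-fold swing that peaked at ZT13.3 (limma adjusted p = 5.9e-04). It was 2.42 ± 0.36 in SIRT6 KO, or 5.36-fold with a peak at ZT14.9 (adjusted p = 0.0010). In the other cohort it was 1.79 ± 0.26 in SIRT1 WT, peaking at ZT16.5 (adjusted p = 1.8e-04), and 1.70 ± 0.30 in SIRT1 KO, peaking at ZT14.7 (adjusted p = 0.0013).

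**Figure D2:**
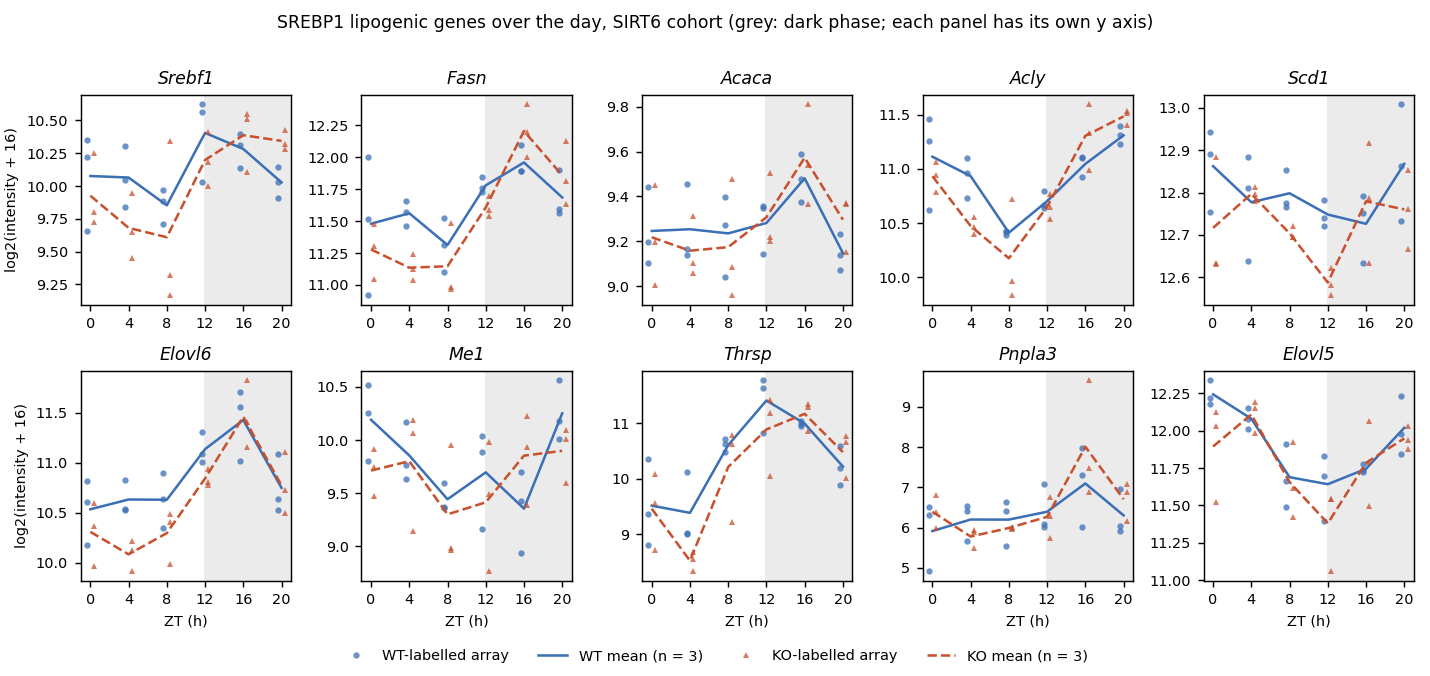
Level of each of the 10 genes (log2(intensity + 16)) against zeitgeber time (h) in the SIRT6 cohort, with a point for each of the 3 arrays per time and genotype and lines through the group means, grey for the dark phase and a y axis of its own in each panel. At ZT4 the 3 arrays labelled KO lie below the 3 WT arrays for Fasn, Acly, Elovl6 and Thrsp.

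Srebf1, the gene of the factor itself, was rhythmic in both KO sets and in neither WT set. In SIRT6 KO its arrays read 10.34, 9.17 and 9.32 at ZT8 and 10.10, 10.55 and 10.51 at ZT16, so that 1 array of the low time lay among the high ones. Its amplitude there was 0.85 ± 0.19 with a peak at ZT17.2 (limma adjusted p = 0.018), against 0.33 ± 0.16 in SIRT6 WT (adjusted p = 0.36). In SIRT1 KO the arrays read 9.80, 9.72 and 9.99 at ZT0 and 10.92, 10.59 and 10.61 at ZT12, without overlap. The amplitude was 0.97 ± 0.13 with a peak at ZT11.9 (adjusted p = 9.2e-05), against 0.41 ± 0.19 in SIRT1 WT (adjusted p = 0.27). A rhythm called in one genotype and not in the other is not a difference between them, and the test of that difference gave an adjusted p = 0.64 for SIRT6 and an adjusted p = 0.72 for SIRT1. An F test over the 6 times in place of the cosine ended the call of Srebf1 in SIRT6 KO (adjusted p = 0.22).

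Among the enzymes of the synthesis line, Acly was rhythmic in 3 sets. In SIRT6 WT it read 10.39, 10.43 and 10.42 at ZT8 and 11.39, 11.23 and 11.31 at ZT20, and in SIRT6 KO 10.72, 9.97 and 9.83 at ZT8 and 11.53, 11.41 and 11.51 at ZT20. Both sets rose through the dark phase with no overlap between the low and the high time. Its amplitude was 0.79 ± 0.13 in SIRT6 WT (peak ZT20.8, adjusted p = 0.0025), 1.29 ± 0.14 in SIRT6 KO (peak ZT19.0, adjusted p = 9.5e-05), 0.81 ± 0.23 in SIRT1 WT (peak ZT22.3, adjusted p = 0.046) and 0.47 ± 0.16 in SIRT1 KO (adjusted p = 0.093). The call in SIRT1 WT was lost with the F test over the 6 times (adjusted p = 0.15), with no filter (adjusted p = 0.0605) and with no trend (adjusted p = 0.0549). It was also lost without any 1 of 12 of its 18 arrays, at adjusted p from 0.0531 to 0.103. The call held without replicate 1 or 2 at ZT0, 3 at ZT4, 1 at ZT8, 2 at ZT16 or 2 at ZT20. In SIRT1 KO Acly was called on leaving out either of 2 of the 18 arrays.

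Fasn, the synthase itself, read 11.25, 11.12 and 11.04 at ZT4 and 12.01, 12.41 and 12.20 at ZT16 in SIRT6 KO, without overlap. It was called in SIRT6 KO, with an amplitude of 1.08 ± 0.13 (peak ZT16.8, adjusted p = 1.9e-04), and in SIRT1 WT, with 0.60 ± 0.17 (peak ZT21.0, adjusted p = 0.038). In SIRT6 WT the amplitude was 0.49 ± 0.16 (adjusted p = 0.13), and in SIRT1 KO 0.51 ± 0.15 (adjusted p = 0.051). The rhythm in SIRT1 KO was called with quantile normalization (adjusted p = 0.039), with the lowest 60% left out (adjusted p = 0.044) and with array weights (adjusted p = 0.035). Leaving out any 1 of 4 of its 18 arrays also brought it past the threshold. The call in SIRT1 WT was lost without any 1 of 10 arrays, at adjusted p from 0.0501 to 0.0842: any of the 3 at ZT0, replicate 1 at ZT4, 2 or 3 at ZT8, 1 or 3 at ZT12, and 1 or 3 at ZT20. Acaca was called in SIRT1 KO, with 0.59 ± 0.14 (peak ZT10.4, adjusted p = 0.014), from arrays at 8.72, 8.71 and 8.84 at ZT0 and 9.74, 9.15 and 9.42 at ZT8. The F test over the 6 times ended the calls of Acaca in SIRT1 KO (adjusted p = 0.074) and of Fasn in SIRT1 WT (adjusted p = 0.10). With no filter the call of Fasn in SIRT1 WT was lost as well (adjusted p = 0.0508). In the other 3 sets the amplitude of Acaca was 0.12 to 0.35.

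In the WT sets, where both were called, the elongases peaked at different hours. Elovl6, which lengthens palmitate, peaked early in the night there, and Elovl5, which acts on polyunsaturated fatty acids, near the start of the light phase. In SIRT6 WT, Elovl6 read 10.82, 10.61 and 10.18 at ZT0 and 11.71, 11.56 and 11.02 at ZT16, without overlap. In the same livers Elovl5 read 12.22, 12.34 and 12.18 at ZT0 and 11.70, 11.40 and 11.83 at ZT12, again without overlap. The amplitude of Elovl6 was 0.82 ± 0.18 in SIRT6 WT (peak ZT14.7, adjusted p = 0.020), 1.26 ± 0.17 in SIRT6 KO (peak ZT15.9, adjusted p = 3.6e-04), 0.63 ± 0.13 in SIRT1 WT (peak ZT15.3, adjusted p = 0.0060) and 0.61 ± 0.22 in SIRT1 KO (adjusted p = 0.11). That of Elovl5 was 0.62 ± 0.09 in SIRT6 WT, peaking at ZT0.02 (adjusted p = 0.0014), and 0.49 ± 0.11 in SIRT1 WT, peaking at ZT2.33 (adjusted p = 0.012). In SIRT6 KO it was 0.55 ± 0.16 (adjusted p = 0.075) and in SIRT1 KO 0.28 ± 0.11 (adjusted p = 0.15). Elovl5 was called in SIRT6 KO with array weights (adjusted p = 0.028) and on leaving out either of 2 of the 18 arrays. Elovl6 was called in SIRT1 KO on leaving out 1 of the 18. With the F test over the 6 times the calls of Elovl6 in SIRT6 WT (adjusted p = 0.081) and SIRT1 WT (adjusted p = 0.075) and of Elovl5 in SIRT1 WT (adjusted p = 0.061) were lost. Of the pair, Elovl5 has the window with CACGTG and Elovl6 the window with none of the 3 motifs. Whether this bears on their peak times was not tested.

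Scd1 moved least. Its level was 12.80 ± 0.12 (SD, n = 72) over all arrays, with a range of 0.48, and its amplitude of 0.07 to 0.16 was called in no set (limma unadjusted p of 0.18 to 0.50). It stood at the 99.9th percentile of genes, with intensities of 5901 to 8225, where the highest of any probe set was 13955.5. Whether the array understates changes at such intensities was not tested. Me1 had an amplitude of 0.79 ± 0.23 in SIRT6 WT (adjusted p = 0.078) and was called in no set either. That rhythm was called with array weights (0.93, adjusted p = 0.018) and on leaving out either of 2 of the 18 arrays. The arrays of Me1 were scattered in SIRT1 KO, between 8.67 and 11.02, and lay between 9.97 and 10.77 in SIRT1 WT, a difference in spread that was not tested. Pnpla3 was called in both KO sets. Its mean of 6.13 over all arrays passed the filter at 6 through the SIRT6 cohort, where it stood at 6.35 in WT and 6.52 in KO, while in the SIRT1 cohort it stood at 5.83 in both sets, below the filter. In SIRT6 KO it read 7.49, 9.66 and 6.89 at ZT16 and 5.90, 5.93 and 5.5 at ZT4, with an amplitude of 1.75 ± 0.45 (peak ZT17.1, adjusted p = 0.043). In SIRT1 KO the amplitude was 0.37 ± 0.11 (adjusted p = 0.045). Neither call was firm. With no filter both were lost (adjusted p = 0.061 and adjusted p = 0.077). That in SIRT6 KO was also lost with the F test over the 6 times (adjusted p = 0.12) or without any 1 of 13 arrays (adjusted p 0.0504 to 0.0897) and held without replicate 3 at ZT0, 2 at ZT12, 2 or 3 at ZT16, or 2 at ZT20. That in SIRT1 KO was lost with quantile normalization (adjusted p = 0.095), with array medians centred (adjusted p = 0.063) and with array weights (adjusted p = 0.056). It was lost as well without any 1 of 15 arrays (0.0537 to 0.0856) and held without replicate 3 at ZT4, 1 at ZT8 or 3 at ZT20.

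**Figure D3:**
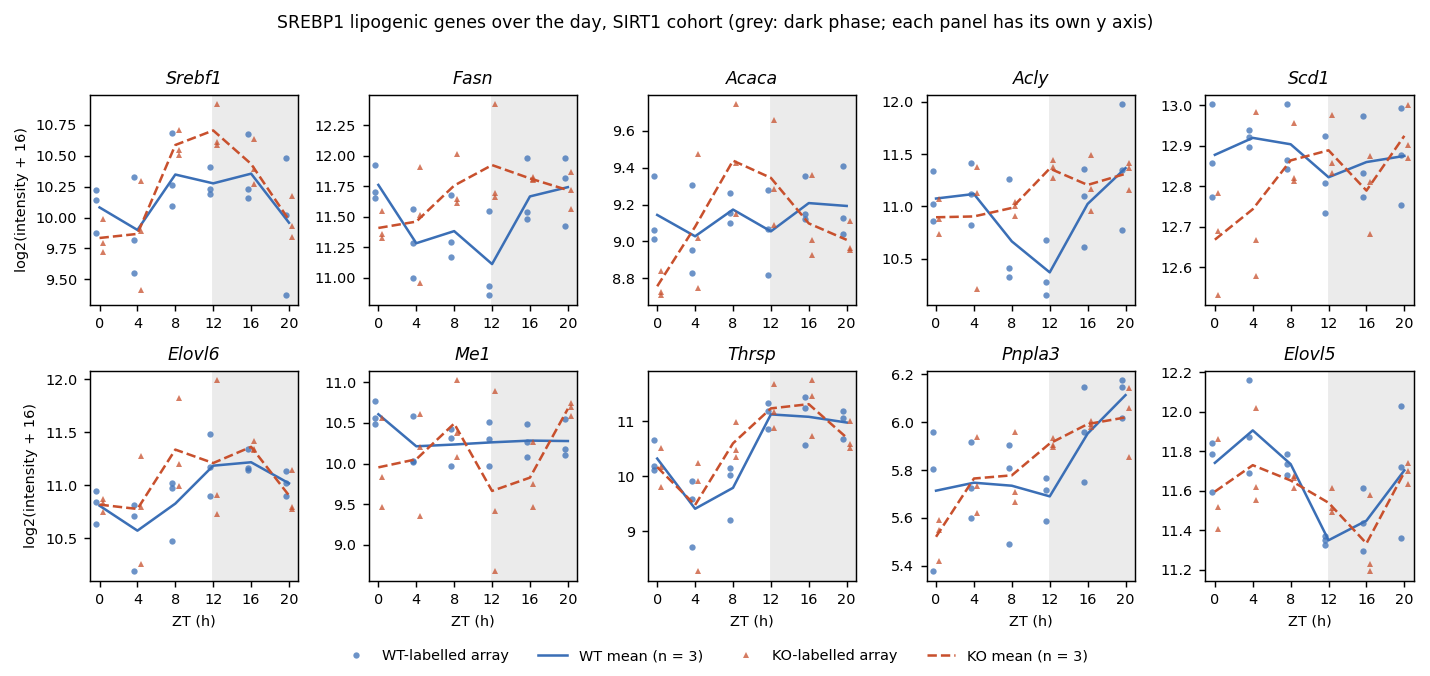
Level of each of the 10 genes (log2(intensity + 16)) against zeitgeber time (h) in the SIRT1 cohort, with a point for each of the 3 arrays per time and genotype and lines through the group means, grey for the dark phase and a y axis of its own in each panel. At ZT12 the 3 arrays labelled KO lie above the 3 WT arrays for Srebf1, Fasn, Acly, Pnpla3 and Elovl5.

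Whether a knockout altered the rhythm was tested by genotype terms on the cosine. In neither cohort did a member pass (0 of 10 in each, where 1 gene of 13308, 0.00751%, passed for SIRT6 and 0 genes, 0%, for SIRT1). At an unadjusted p under 0.05 in limma there were 2 members (Fasn and Acly) for SIRT6, where 8.25% of all genes were, and 3 (Fasn, Acaca and Acly) for SIRT1, where 7.26% were. In the SIRT6 cohort 7 of the 10 genes had the larger amplitude in the set labelled KO, against 42.4% of all genes. The amplitude was higher there by 0.49 ± 0.19 in Acly (limma adjusted p = 0.49), by 0.59 ± 0.21 in Fasn (adjusted p = 0.57), by 0.52 ± 0.25 in Srebf1 and by 0.44 ± 0.25 in Elovl6. For Thrsp the difference was 0.37 ± 0.46. In the SIRT1 cohort 5 of the 10 amplitudes were larger in KO, against 51.6% of all genes, and the 3 genes of lowest p had their fitted peaks at other hours. The fits put Fasn at ZT13.4 in KO and ZT21.0 in WT, Acly at ZT15.3 and ZT22.3, and Acaca at ZT10.4 and ZT18.2. In each of the 3 one of the rhythms was not called (KO for Fasn and Acly, WT for Acaca), so that peak time is not defined by a called rhythm. All 3 had an adjusted p of 0.64.

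The WT livers of the 2 strains were set against each other in the same way, to show how far the members' rhythm varied without a knockout. Again 0 of 10 members passed, with 11 genes (0.0827%) passing in all and 2 members at an unadjusted p under 0.05 (16.8% of all genes). Thrsp peaked at ZT13.3 in SIRT6 WT and at ZT16.5 in SIRT1 WT, 3.13 h later (limma adjusted p = 0.13). The fits put Fasn at ZT16.3 and ZT21.0 (adjusted p = 0.30), but its rhythm was not called in SIRT6 WT. Strain and cohort cannot be told apart in this comparison.

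Averaged over the 6 times, the knockouts left no member past the threshold. In the SIRT6 cohort 0 of 10 genes passed (6.61% of all genes did), with 2 at an unadjusted p under 0.05 in limma (19.3% of all genes). There 8 of the 10 had a lower mean in the KO-labelled set, with a median difference of −0.09 against 0.00 over all genes. The 7 Kupffer cell markers were all higher there (median 0.21, 0 called, 0 at an unadjusted p under 0.05 in limma), and their part in the members' values was not tested. Elovl6 ran from 9.92 to 11.83 in SIRT6 KO (median 10.55) and from 10.18 to 11.71 in SIRT6 WT (median 10.83). The sets overlapped, but KO lay below the WT mean of its time in 15 of 18 arrays, and the difference was −0.22 ± 0.09 (SE; 95% interval −0.40 to −0.05, adjusted p = 0.13). Scd1 differed by −0.07 ± 0.03 (−0.14 to −0.01, adjusted p = 0.20), lower in 12 of 18. The intervals were −0.58 to 0.12 for Thrsp, −0.25 to 0.06 for Fasn, −0.28 to 0.10 for Srebf1 and −0.28 to 0.62 for Pnpla3. Giving each array a weight by its agreement brought Elovl6 (−0.32, adjusted p = 0.0036) and Scd1 (−0.08, adjusted p = 0.034) past the threshold. Elovl6 also passed when the 5 arrays of low agreement were left out (−0.32, adjusted p = 0.045).

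In the SIRT1 cohort 0 of 10 passed as well (2.27% of all genes did), with 1 at an unadjusted p under 0.05 in limma (18.02% of all genes). There 6 means were higher and 4 lower in KO, with a median of 0.04, while the 7 Kupffer cell markers were all lower (median −0.20, 0 called, 1 at an unadjusted p under 0.05). Fasn ran from 10.96 to 12.42 in SIRT1 KO (median 11.67) and from 10.86 to 11.98 in SIRT1 WT (median 11.54). It was above the WT mean of its time in 12 of 18 KO arrays and differed by 0.19 ± 0.09 (0.01 to 0.36, adjusted p = 0.24). Acly differed by 0.17 ± 0.11 (−0.04 to 0.39, adjusted p = 0.39) and Me1 by −0.20 ± 0.14 (−0.50 to 0.09). Set against each other, the effects of the knockouts differed in 0 of 10 members (5.76% of all genes differed), with 2 at an unadjusted p under 0.05 (19.6% of all genes). The SIRT6 effect minus the SIRT1 effect was −0.35 ± 0.14 for Elovl6 (adjusted p = 0.12) and −0.28 ± 0.12 for Fasn (adjusted p = 0.16). For Elovl6 it passed with array medians centred (−0.43, adjusted p = 0.038), with array weights (−0.38, adjusted p = 0.029) and without the 5 arrays (−0.45, adjusted p = 0.049).

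**Figure D4:**
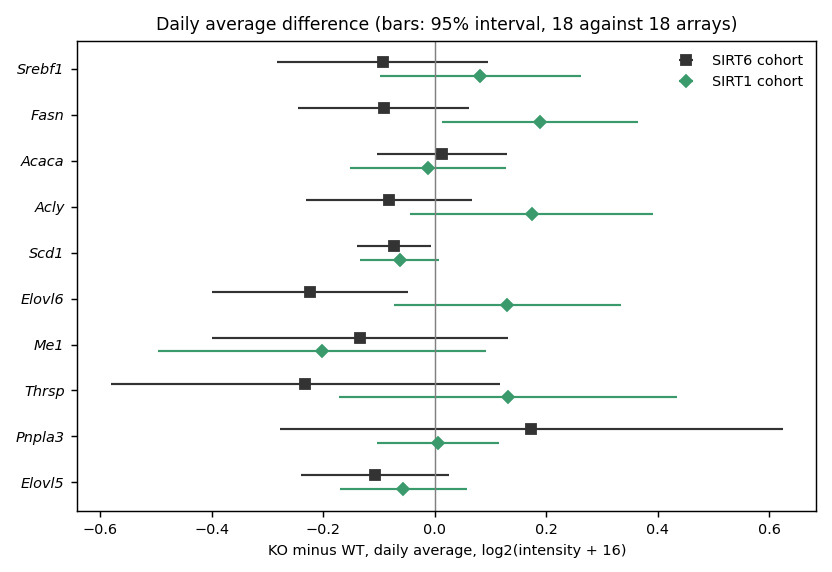
KO minus WT (log2 units), averaged over the 6 times, for each of the 10 genes in both cohorts, with bars of the 95% interval from limma over 36 arrays per cohort. In the SIRT6 cohort 8 of 10 points lie below 0, with Elovl6 at −0.22, and in the SIRT1 cohort 6 lie above it, with Fasn at 0.19.

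Differences at single times were then read, with 1 correction over all genes and times. None of the 60 pairs of member and time passed in the SIRT6 cohort (0.137% of all pairs did, and 5 member pairs had an unadjusted p under 0.05 in limma, as had 7.90% of all pairs). None of 60 passed in the SIRT1 cohort (0% of all pairs, 7 member pairs at an unadjusted p under 0.05, as were 8.22% of all pairs). The 3 KO arrays lay clear of the 3 WT arrays in 11 member pairs of the SIRT6 cohort (12.9% of all pairs were clear), 2 upward (6.64% of all pairs) and 9 downward (6.25%). In the SIRT1 cohort they did so in 10 (13%), 7 upward (6.5%) and 3 downward (6.52%).

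In the SIRT6 cohort 4 of the 9 lower pairs fell at ZT4, where 1473 of 13308 genes were lower in this sense. Elovl6 read 10.53, 10.54 and 10.83 in WT and 10.22, 9.92 and 10.12 in KO, a difference of −0.55 ± 0.21 (adjusted p = 0.46). Acly read 11.10, 10.96 and 10.73 in WT and 10.46, 10.56 and 10.40 in KO, a difference of −0.46 ± 0.18 (adjusted p = 0.46). Fasn differed by −0.43 ± 0.18 and Thrsp by −0.86 ± 0.42. At this time the arrays labelled KO were thus the lower ones for both enzymes, for the elongase and for Thrsp.

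In the SIRT1 cohort 5 of the 7 higher pairs fell at ZT12, where 1230 of 13308 genes were higher in this sense. Fasn read 10.86, 11.55 and 10.93 in WT and 12.42, 11.66 and 11.69 in KO, which is 1.76-fold higher (0.81 ± 0.21, limma adjusted p = 0.31). Acly read 10.16, 10.68 and 10.28 in WT and 11.27, 11.38 and 11.44 in KO, or 1.99-fold higher (0.99 ± 0.26, adjusted p = 0.31). Srebf1 differed by 0.43 ± 0.22, Pnpla3 by 0.22 ± 0.13 and Elovl5 by 0.19 ± 0.14. At lights off Fasn and Acly thus read higher in every KO array than in any WT array, by a size that did not pass the correction over 79848 pairs.

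The members did not vary independently of each other between replicates. In 10 of 72 arrays, 8 or more of the 10 genes were the highest or the lowest of their 3 arrays. In SIRT6 WT replicate 3 at ZT0, 9 genes were the lowest, with a mean deviation from the group of −0.38, and in SIRT6 KO replicate 2 at ZT16, 9 were the highest (0.38). In SIRT1 KO at ZT4, replicate 2 was the highest in 9 genes (0.39) and replicate 3 the lowest in 7 (−0.37). Counts of members that move one way at a time are therefore not counts of independent measurements. Over the 24 group means, centred within cohort, Fasn followed the mean of the other members most closely (r = 0.82), Me1 less so (r = 0.19), and Elovl5 showed little relation to it (r = −0.12). Each of these points shares its 3 arrays across genes.

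**Figure D5:**
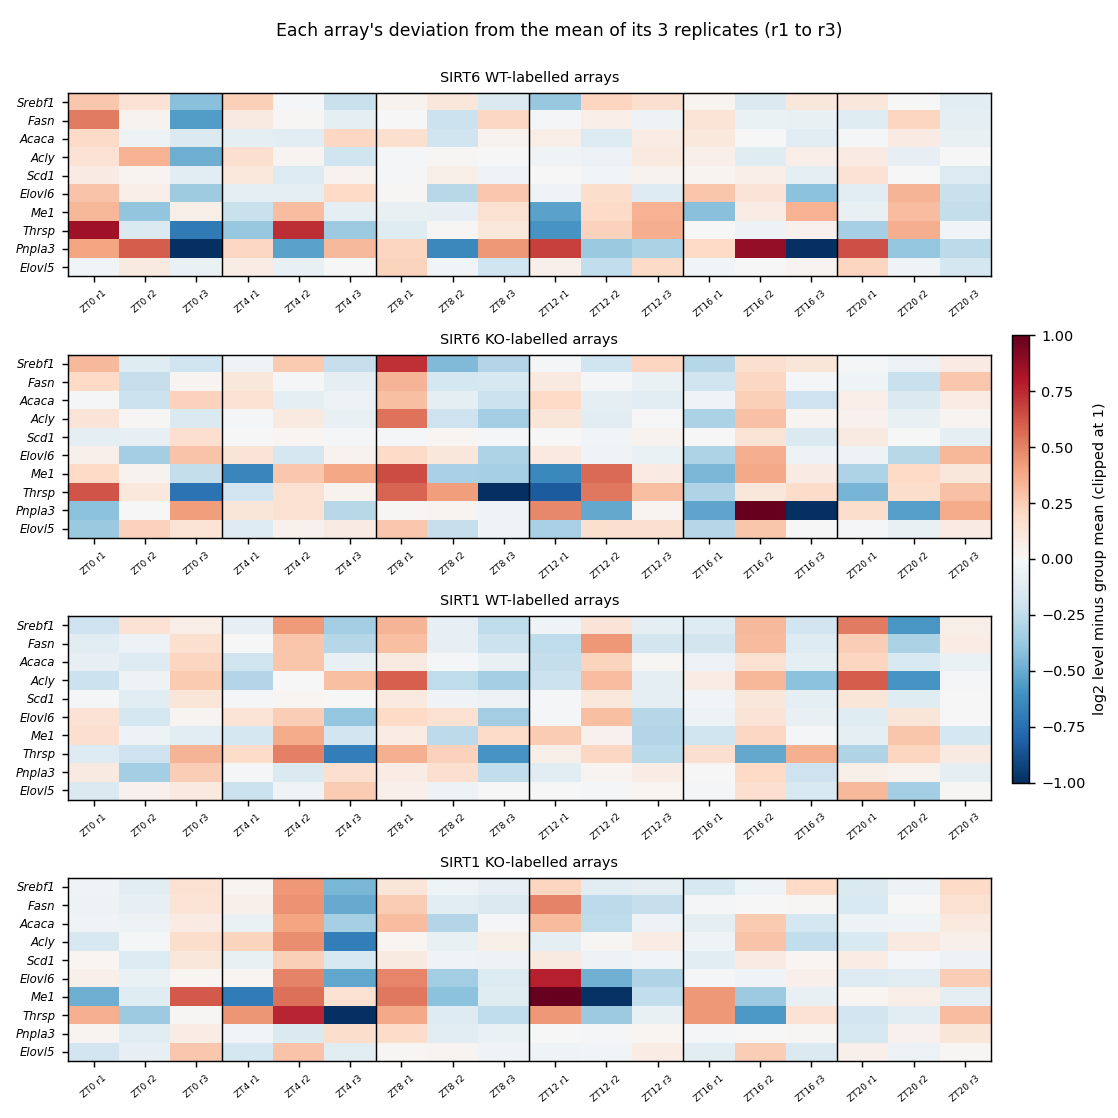
Deviation of each array from the mean of its group of 3 (log2 units, colour), for the 10 genes and the 72 arrays, in a panel of 18 arrays per set ordered by time, with colours clipped at 1. Columns of 1 colour are arrays in which most genes deviate together, such as SIRT6 WT replicate 3 at ZT0, where 9 of 10 are the lowest of the 3.

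The upstream regulators of SREBP1 were read from a list of 20 genes, of which 19 were measured by a probe set of their own (Nr1h2 was not analysed here). In the daily average 3 passed for SIRT6 (6.61% of all genes did), 1 higher (3.39%) and 2 lower (3.22%). For SIRT1 1 passed (2.27% of all genes did), and it was higher (1.06%). Usf2, which binds E-boxes of lipogenic promoters, was higher in KO of both cohorts. It rose by 0.26 ± 0.06 in SIRT6 KO (adjusted p = 0.011, above in 17 of 18) and by 0.21 ± 0.05 in SIRT1 KO (adjusted p = 0.032, above in 16 of 18). With array medians centred it was 0.23 in the SIRT6 cohort (adjusted p = 0.062). In the SIRT1 cohort its call was lost without WT replicate 3 at ZT0, WT 3 at ZT4, WT 1 at ZT12, KO 3 at ZT0, KO 3 at ZT4, KO 3 at ZT8, KO 1 at ZT12 or KO 2 at ZT20, at adjusted p from 0.0501 to 0.0597. Mlx, the partner of the glucose sensor ChREBP, fell by 0.17 ± 0.05 in SIRT6 KO (adjusted p = 0.024, lower in 14 of 18). Prkaa1, a catalytic subunit of AMPK, fell by 0.17 ± 0.04 there (adjusted p = 0.0088, lower in 16 of 18).

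Of the 19 regulators, 4 were rhythmic in SIRT6 WT (10.1% of all genes), 7 in SIRT6 KO (10.6%), 10 in SIRT1 WT (18.3%) and 11 in SIRT1 KO (23.2%). The count in SIRT6 WT was 2 without replicate 1 at ZT0 or 1 or 3 at ZT8, and that in SIRT1 WT was 6 without replicate 2 at ZT0, 2 at ZT8, or 2 or 3 at ZT12. The rhythm differed between KO and WT in 0 of 19 in either cohort. At an unadjusted p under 0.05 in limma there were 3 for SIRT6 (8.25% of all genes) and 4 for SIRT1 (7.26%). Insig2, which retains SREBP in the endoplasmic reticulum, and Irs1, an insulin receptor substrate, were rhythmic in all 4. Insig2 had amplitudes of 1.3 to 1.69 and peaked between ZT22.5 and ZT23.8, in the hours when Thrsp was falling. Insig1, its relative and an SREBP target, was called in the KO sets, at 0.63 ± 0.15 with a peak at ZT17.5 in SIRT6 KO and 0.54 ± 0.08 with a peak at ZT16.2 in SIRT1 KO. Its fitted amplitude was 0.52 in SIRT6 WT, with a fitted peak at ZT21.8, and 0.38 in SIRT1 WT, at ZT21.3. Neither WT rhythm was called. The difference in rhythm of Insig1 did not pass for SIRT6 (limma unadjusted p = 0.041, adjusted p = 0.60) or SIRT1 (unadjusted p = 8.7e-04, adjusted p = 0.64). The coactivator gene Ppargc1b swung by 0.99 ± 0.15 in SIRT1 WT and 1.55 ± 0.16 in SIRT1 KO, peaking at ZT9.7 and ZT8.5 (difference in rhythm, adjusted p = 0.67). Mlx was called in SIRT6 KO (0.55 ± 0.08, peak ZT16.9), with a fitted amplitude of 0.11 in SIRT6 WT (difference in rhythm, limma adjusted p = 0.50).

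Other enzymes of fatty acid and glyceride synthesis came from a list of 25, of which 22 were measured by a probe set of their own. In the daily average 1 of 22 passed in the SIRT6 cohort (6.61% of all genes did), and it was lower (3.22% of all genes were). In the SIRT1 cohort 0 passed (2.27% of all genes did). At an unadjusted p under 0.05 in limma there were 6 for SIRT6 (19.3% of all genes) and 5 for SIRT1 (18.02%). The enzyme that passed was Slc25a1, the carrier that exports citrate from mitochondria for Acly. Slc25a1 fell by 0.13 ± 0.03 in SIRT6 KO (adjusted p = 0.0081, lower in 16 of 18). Of the 22 enzymes, 9 were rhythmic in SIRT6 WT (10.1% of all genes), 12 in SIRT6 KO (10.6%), 11 in SIRT1 WT (18.3%) and 10 in SIRT1 KO (23.2%), with Elovl3, Lpin1, Agpat2 and Fads2 in all 4. The rhythm differed between KO and WT in 0 of 22 in either cohort. At an unadjusted p under 0.05 in limma there were 4 in each, against 8.25% of all genes for SIRT6 and 7.26% for SIRT1. The elongase Elovl3 had the largest amplitude of this list in SIRT6 WT and SIRT6 KO, 2.79 ± 0.43 and 3.11 ± 0.39, and peaked between ZT21.8 and ZT23.3 over the 4 sets. The phosphatidate phosphatase Lpin1 peaked between ZT10.4 and ZT12.0 with amplitudes of 1.39 to 2.62. Aacs, which activates acetoacetate for lipid synthesis, swung by 1.18 ± 0.28 in SIRT6 WT and 2.15 ± 0.36 in SIRT6 KO, with peaks at ZT15.4 and ZT15.8 that lay near those of Elovl6 (difference in rhythm, adjusted p = 0.71).

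Genes outside the 10 whose course over the 24 group means was most like the members' mean were Cyp2c55 (r = 0.80), Aacs (r = 0.79), Gsta4 (r = 0.76), Zfp326 (r = 0.75), Mblac2 (r = 0.73) and Mettl7b (r = 0.73). Closest to Srebf1 alone were Plcb1 (r = 0.85), Vdac1 (r = 0.84) and Txn2 (r = 0.82). These correlations describe the same arrays and were picked as the highest among all genes.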

How the data were processed

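Gene expression was measured in mouse liver on single-colour Affymetrix arrays, 1 per sample. Per the submitters' processing notes, the authors used Affymetrix Expression Console 1.1.1 and PLIER 2.0. The authors' deposited values are intensity per probe set and were on a linear scale by their range. How PLIER normalized them, and on which build, is not given in the sources used. Gene names came from the platform annotation, for probe sets with 1 symbol.

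Groups, times and replicate numbers came from the sample titles. Values were taken as log2(intensity + 16), and the lowest 40% of genes by mean were left out. Each cohort was fitted in limma 3.58.1 (R 4.3.3) as 12 group means over 36 arrays, with an empirical Bayes trend. Rhythms were tested per set with a cosine of 24 h (2 coefficients), differences in rhythm with genotype terms on it, and the difference between the effects over all 72 arrays. P-values were adjusted by Benjamini-Hochberg over all genes, with a threshold of 0.05. The steps were tested on simulated data.

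Precision is limited by the number of arrays. The members and lists were chosen with earlier results of these data known. Named were the members, the targeted genes, up to 4 genes of each pathway list with the smallest p in a comparison they passed, and the genes most like the members' mean or Srebf1. Predicted genes were counted, not named. Alternatives were other scalings, pseudocounts, filters, array weights, no trend, all probe sets, a replicate block, an F test over the 6 times, and single arrays left out.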

Additional observations from a re-analysis of the deposited data

Results flagged for a closer look

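For 1 of 19 regulators, Mlx, and 1 of 22 enzymes, Slc25a1, the effect of the SIRT6 knockout differed from that of the SIRT1 knockout. The difference itself was tested, over all 72 arrays, and 5.76% of all genes passed. The counts of 1 of 19 and 1 of 22 lie near that share and mark nothing particular to these lists. For Mlx the SIRT6 effect minus the SIRT1 effect was −0.29 ± 0.07 (limma adjusted p = 0.010), from −0.17 for SIRT6 and 0.11 for SIRT1. For Slc25a1 it was −0.16 ± 0.04 (adjusted p = 0.0025), from −0.13 and 0.04. Prkaa1, at −0.19 ± 0.06, just missed (adjusted p = 0.053). It passed with quantile normalization (adjusted p = 0.027), with array medians centred (0.0063) and with the lowest 60% left out (0.045). It also passed with array weights (0.0115) and without the arrays of agreement under 0.95 (0.0255). Regulators that differed were 5 with centring and 6 with array weights, and enzymes 3 with array weights. Strain and cohort cannot be told apart from the knockouts in this comparison.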

How the results depend on the processing

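Thrsp kept its rhythm in all 4 sets under every alternative run. The number of rhythmic members in SIRT1 WT, 5, was 3 with no filter, 2 at an adjusted p of 0.01, 1 with the F test over the 6 times, and 3 to 5 with single arrays left out. That in SIRT1 KO, 4, was 2 at an adjusted p of 0.01. The number of members past the threshold in the SIRT6 daily average, 0, was 2 with array weights and 1 without the arrays of agreement under 0.95, an alternative chosen after seeing the data. The number whose knockout effects differed, 0, was 1 with array medians centred, with array weights and without those arrays. The cause was not tested.

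Signs turned where values were near 0. With array medians centred, Acaca was −0.014 for SIRT6 and 0.031 for SIRT1, and the difference between the effects was −0.045 for Acaca, −0.0036 for Me1 and −0.021 for Usf2. With array weights Acaca was −0.065 for SIRT6, Pnpla3 −0.0094 for SIRT1, and the difference was 0.021 for Scd1 and 0.067 for Elovl5. Without the arrays of agreement under 0.95, Acaca was −0.0077 and the difference for Elovl5 was 0.0076. With single arrays left out, Acaca ran from −0.0117 to 0.0314 for SIRT6 and −0.0454 to 0.0155 for SIRT1, where Pnpla3 ran from −0.0221 to 0.0264 and Prkaa1 from −0.0135 to 0.0362. The difference between the effects ran from −0.00196 to 0.0589 for Acaca, −0.0152 to 0.17 for Me1 and −0.0234 to 0.0107 for Scd1.

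Same-numbered replicates were not treated as pairs. The correlation of their deviations ran from −0.36 to 0.74 for SIRT6 (median 0.25, over 0.1 in 11 of 18) and from −0.28 to 0.37 for SIRT1 (median 0.03, over 0.1 in 6 of 18). With a replicate block the rhythms of Pnpla3 in SIRT6 KO (adjusted p = 0.064), Acly in SIRT1 WT (adjusted p = 0.060) and Pnpla3 in SIRT1 KO (adjusted p = 0.054) were no longer called, and no other call on a member changed.

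Centring moved the calls over all genes from 451 higher and 429 lower to 288 and 579 for SIRT6, and from 141 and 161 to 663 and 103 for SIRT1, with the members' median at −0.12 and 0.09. Regulators called in the SIRT6 average, 3, were 6 with array weights, 5 in 1 fit of all 72 arrays and 1 at an adjusted p of 0.01, and enzymes, 1, were 6 with array weights. For SIRT1, regulators, 1, were 3 with centring, 4 with array weights and 0 at 0.01, and enzymes, 0, were 4 with centring. With the F test rhythmic regulators were 2 in SIRT6 WT, 4 in SIRT6 KO and 2 in SIRT1 WT, and rhythmic enzymes 4 in each set of the SIRT6 cohort.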
